A study of Homo sapiens with 12 samples.

Results

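Wnt feedback and target genes were followed across the transcriptomes of HCT116 cells exposed to TNF-alpha (TNF), to the kinase inhibitor Senexin B, to both or to neither. The 10 members were taken by symbol from the 56634 gene symbols of the count table, and all 10 were found. They were AXIN2, RNF43, ZNRF3 and NKD1, which act as feedback inhibitors, LGR4, a receptor, TCF7, SP5 and ASCL2, which encode transcription factors, and FRAT1 and FRAT2, which encode GSK3-binding proteins. Of the 10, 7 passed a filter on low counts and were tested (AXIN2, RNF43, ZNRF3, NKD1, LGR4, TCF7 and FRAT2). SP5, FRAT1 and ASCL2 did not pass and are given as counts.

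HCT116 is an established human colorectal carcinoma line, and Senexin B inhibits CDK8 and CDK19, the kinases of the Mediator complex. The 12 libraries were 3 biological replicates in each of 4 groups, and the series title asks how Mediator kinase inhibition changes gene expression with and without TNF. TNF plus Senexin B cells were given 1 µM Senexin B for 1 hour and then 10 ng/mL TNF for 2 hours. TNF cells were given 0.1% DMSO in place of the inhibitor before the same 2 hours of TNF. Senexin B cells had the inhibitor at 1 µM and no TNF over the 3 hours, and control cells had 0.1% DMSO over the 3 hours. Every group therefore comes from a line that carries an activating mutation of the beta-catenin gene.

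In the canonical Wnt pathway, a destruction complex built on axin, APC and the kinase GSK3 marks beta-catenin for degradation, and Wnt ligands acting on Frizzled and LRP receptors block that complex. Beta-catenin that escapes enters the nucleus and, with TCF and LEF factors, switches on target genes, several of which encode inhibitors of the same pathway. In colorectal cancer, mutations in APC or beta-catenin keep this transcription on without a ligand, so feedback genes such as AXIN2 are widely read as a sign of pathway output.

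Total counts ran from 5835226 in TNF replicate 1 to 9281176 in Senexin B replicate 3, so that 1 CPM (counts scaled to library size with TMM factors) stood for 5.77 to 9.34 counts. The TNF label was checked with NFKBIA and TNFAIP3, NF-kB feedback genes, which differed by 3.54 ± 0.06 and 4.38 ± 0.16 (log2, SE) between TNF and control. Of 13 epithelial markers, 10 averaged at least 1 CPM over the 12 libraries, led by KRT8, KRT18 and KRT19, while VIL1 and CEACAM5 had no count in any library. Of 10 fibroblast markers, 1 (COL1A1) reached that average, and none of 12 blood cell markers did. TNF replicate 1 stood apart: across genes, its deviation from its group followed transcript GC content with a Spearman's rho of -0.52. Control replicate 1 stood apart by the chi-square given next. Its rho was -0.16, smaller in size than the 0.24 of control replicate 3. Between libraries of 1 group, chi-square per degree of freedom was 2.79 and 2.50 for TNF replicate 1 against the other two and 1.25 between these. It was 2.71 and 2.86 for control replicate 1 against the other two and 1.37 between these. Replicate 1 gave 1.56 and 1.76 in TNF plus Senexin B cells (1.24 between the others), and 1.51 and 1.47 in Senexin B cells (1.23). In this bulk RNA, fewer expressing cells and less RNA per cell cannot be told apart.

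RNF43 had the highest level per kilobase of annotated exon of the 10 members in every group, and ASCL2 the lowest. In control cells the mean level was 9.50 ± 0.23 RPKM (CPM per kilobase, SD, n = 3) for RNF43, followed by 4.70 ± 0.28 for ZNRF3, 3.41 ± 0.03 for TCF7 and 2.62 ± 0.31 for AXIN2. Lower levels followed, with 2.06 ± 0.27 RPKM for FRAT2, 1.498 ± 0.244 for LGR4, 0.821 ± 0.059 for NKD1, 0.406 ± 0.070 for SP5 and 0.137 ± 0.014 for FRAT1. No pair of neighbours in that order overlapped over the 3 control libraries. In TNF plus Senexin B cells, ZNRF3, FRAT2 and TCF7 overlapped with their neighbours, as did SP5, FRAT1 and ASCL2. In TNF cells, LGR4, NKD1 and SP5 overlapped with their neighbours, and so did FRAT1 and ASCL2. In Senexin B cells, TCF7 overlapped with FRAT2 and NKD1 with SP5. Division by the whole annotated exon length, 17425 bases for NKD1, assumes that all annotated exons are used.

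**Figure D1:**
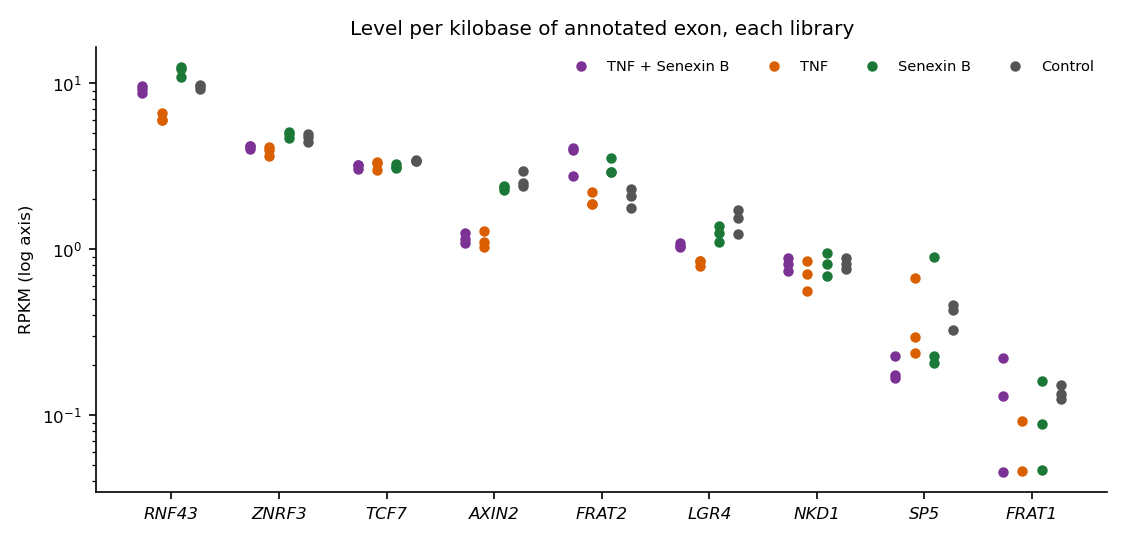
RPKM on a log axis for 9 members, each point a library, coloured by group; libraries at 0 counts and ASCL2 are not drawn. RNF43 stood highest in all 4 groups, and the AXIN2 mean stood below that of FRAT2 in the 3 treated groups and above it in control.

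TNF lowered 4 of the 7 tested members, AXIN2, RNF43, LGR4 and ZNRF3, and raised none. Senexin B raised RNF43 and FRAT2 and lowered none, both in cells without TNF and in cells given TNF. The ZNRF3 calls and the FRAT2 call without TNF did not hold in all alternative fits. A gene was called at a Benjamini-Hochberg adjusted p under 0.05, over 13084 genes tested in edgeR's quasi-likelihood framework. In TNF against control, 10.0% of all tested genes were called, 4.2% lower, beside 4 of 7 members. Across all genes that comparison gave 760 higher and 549 lower, a split that became 568 higher and 735 lower with upper-quartile scaling. In Senexin B against control, 3.04% of all genes were called, 1.53% higher, beside 2 of 7 members. When TNF-treated cells with and without the inhibitor were compared, 5.45% were called, 2.9% higher, beside 2 of 7 members. When TNF was added to inhibited cells, TNF plus Senexin B against Senexin B, 5.95% were called, 1.68% lower, beside 3 of 7 members. The median member log2 fold changes in these 4 comparisons were -0.26, -0.01, 0.17 and -0.25, and the medians over all tested genes lay between -0.00521 and 0.000771. Since the members were chosen with earlier results of these data known, these counts and medians are no test of the members as a set.

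**Figure D2:**
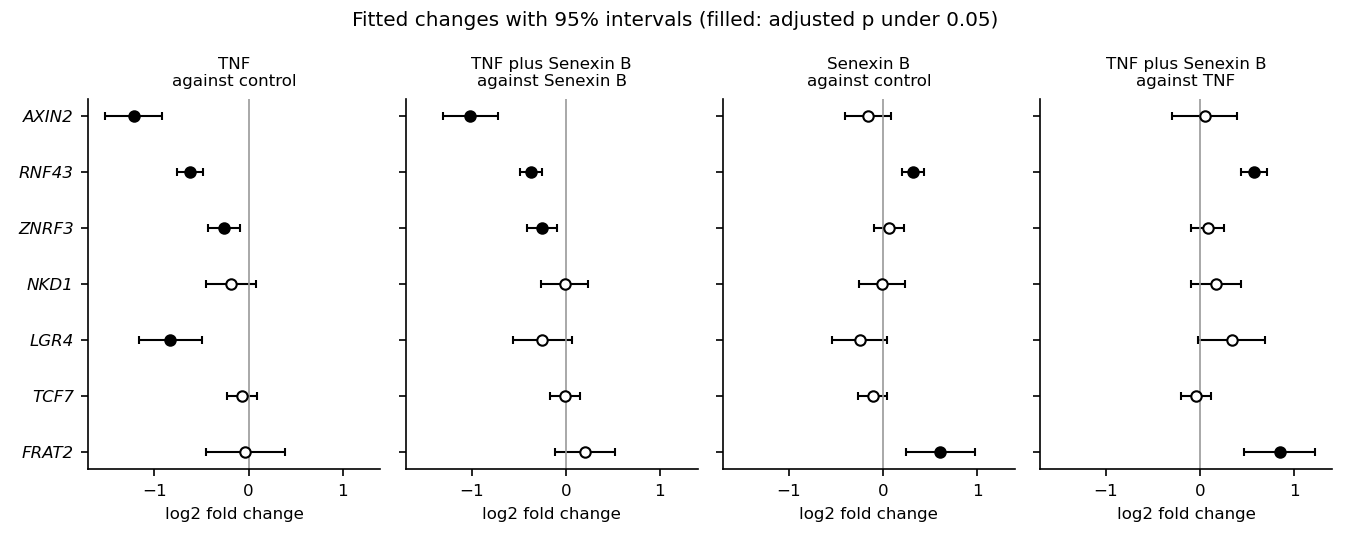
Fitted log2 fold change (points) with its 95% interval (bars) for the 7 tested members in 4 comparisons; filled points have an adjusted p under 0.05. AXIN2, RNF43 and ZNRF3 were called lower in both TNF comparisons, and RNF43 and FRAT2 were called higher in both Senexin B comparisons.

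AXIN2 encodes a scaffold of the destruction complex, is a direct beta-catenin target and lies at chr17:65528563-65561647 on the minus strand (GRCh38, GENCODE 29). Its level was 5.66, 6.00 and 6.57 CPM in TNF plus Senexin B cells, 6.76, 5.40 and 5.74 CPM in TNF cells, 12.5, 11.9 and 12.4 CPM in Senexin B cells, and 12.5, 15.5 and 13.0 CPM in control cells. All 6 TNF-treated libraries lay below all 6 libraries without TNF. TNF lowered AXIN2 by -1.22 ± 0.15 (log2 fold change, SE) against control, with an adjusted p of 2.11e-09. In the presence of the inhibitor, TNF plus Senexin B against Senexin B, the change was -1.01 ± 0.15, with an adjusted p of 1.498e-07. Senexin B itself gave -0.16 ± 0.12 against control (95% interval -0.40 to 0.08, adjusted p 0.594). TNF plus Senexin B against TNF gave 0.05 ± 0.17 (95% interval -0.30 to 0.40, adjusted p 0.919), so that a change beyond 0.40 in either direction lay outside the interval. Summed over 3 libraries, the gene had 155 counts in TNF plus Senexin B, 130 in TNF, 319 in Senexin B and 342 in control cells. The gene model AC004805.1 shares 25.2% of its annotated exon length on the same strand.

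RNF43 and its relative ZNRF3 encode membrane ubiquitin ligases that remove Frizzled receptors from the cell surface. RNF43 (chr17:58352500-58417595, minus strand) was the member called in the most of these 4 comparisons. It had 72.6, 69.1 and 65.1 CPM in TNF plus Senexin B cells, 49.8, 44.9 and 45.2 CPM in TNF cells, 82.1, 93.5 and 90.8 CPM in Senexin B cells, and 71.8, 69.4 and 72.7 CPM in control cells. TNF libraries were the lowest and Senexin B libraries the highest, with no overlap with any other group, and TNF plus Senexin B libraries overlapped with control. TNF lowered it by -0.62 ± 0.07 (log2, SE) against control, and Senexin B raised it by 0.32 ± 0.06 (adjusted p 7.39e-11 and 0.000242). TNF plus Senexin B against TNF gave 0.57 ± 0.07 (adjusted p 4.56e-09), and TNF plus Senexin B against Senexin B gave -0.37 ± 0.06 (adjusted p 3.79e-06). Cells given both did not differ from control beyond the test (-0.05 ± 0.06, 95% interval -0.17 to 0.07, adjusted p 0.712). AC004687.2, a gene model that is not in the count table, shares 57.6% of the annotated RNF43 exon length on the same strand. SUPT4H1 (456 to 802 counts) shares 1.91% on the same strand, and TSPOAP1-AS1 (0 to 3 counts) 20.3% on the opposite strand. How reads in these stretches were assigned is not given in the sources used here. Because RNF43 went opposite ways with the cytokine and the inhibitor, its upstream RefSeq promoter window (GRCh38.p14, chr17:58417485-58417784, minus strand, 250 bases before to 50 after the start) is shown. It holds no CTTTGA, the core of the TCF/LEF motif, on either strand, so no base is in capitals.
RNF43: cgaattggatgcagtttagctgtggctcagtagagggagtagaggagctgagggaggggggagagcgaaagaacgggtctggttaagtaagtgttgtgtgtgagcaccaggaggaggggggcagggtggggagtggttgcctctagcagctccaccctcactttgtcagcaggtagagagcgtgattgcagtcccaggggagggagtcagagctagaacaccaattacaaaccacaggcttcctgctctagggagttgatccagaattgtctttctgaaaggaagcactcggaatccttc

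The RNF43 and AXIN2 counts of 1 library share its depth and scaling, so their ratio is free of both. It was 12.8, 11.5 and 9.91 RNF43 counts per AXIN2 count in TNF plus Senexin B cells, 7.36, 8.32 and 7.87 in TNF cells, 6.55, 7.85 and 7.31 in Senexin B cells, and 5.73, 4.47 and 5.58 in control cells. Control libraries were the lowest and those with both agents the highest, with no overlap between these and any other group, while TNF and Senexin B libraries overlapped. The mean ratio was 11.4 ± 1.45 in TNF plus Senexin B and 7.85 ± 0.480 in TNF cells (SD, n = 3 each, exact two-sided permutation test p = 0.1). It was 7.24 ± 0.654 in Senexin B and 5.26 ± 0.690 in control cells (SD, n = 3 each, exact two-sided permutation test p = 0.1). With 3 against 3 that is the smallest p the test allows, and the pair was chosen after its values were seen.

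ZNRF3 (chr22:28883592-29057487, plus strand) had 28.1, 29.04 and 29.1 CPM in TNF plus Senexin B cells, 27.6, 25.4 and 28.7 CPM in TNF cells, 32.6, 35.6 and 34.5 CPM in Senexin B cells, and 34.5, 30.6 and 33.0 CPM in control cells. All 6 TNF-treated libraries lay below all 6 others. Its decreases with TNF were the smallest that were called, -0.26 ± 0.09 (log2, SE, adjusted p 0.0352) against control and -0.25 ± 0.08 (adjusted p 0.0491) in the presence of the inhibitor. The first call was lost in 10 of 22 alternative fits and the second in 11 of 22. The adjusted p reached 0.160 without TNF replicate 2 for the first and 0.208 without Senexin B replicate 2 for the second. Senexin B gave 0.07 ± 0.08 against control (95% interval -0.09 to 0.22), and TNF plus Senexin B gave 0.08 ± 0.09 against TNF (95% interval -0.09 to 0.25).

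NKD1 encodes an inhibitor that binds Dishevelled and was not called in any comparison. It had 15.4, 14.1 and 12.9 CPM in TNF plus Senexin B cells, 9.71, 12.4 and 14.9 CPM in TNF cells, 12.1, 16.6 and 14.1 CPM in Senexin B cells, and 14.3, 13.3 and 15.4 CPM in control cells. All 4 groups overlapped, and the 3 TNF libraries spread the most. Against control, TNF gave -0.19 ± 0.13 (log2, SE, 95% interval -0.45 to 0.08, adjusted p 0.422), so the interval still holds a decrease larger than that of ZNRF3. Senexin B against control gave -0.01 ± 0.12, TNF plus Senexin B against TNF gave 0.17 ± 0.13 (95% interval -0.10 to 0.43, adjusted p 0.534), and TNF plus Senexin B set against Senexin B gave -0.01 ± 0.12.

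**Figure D3:**
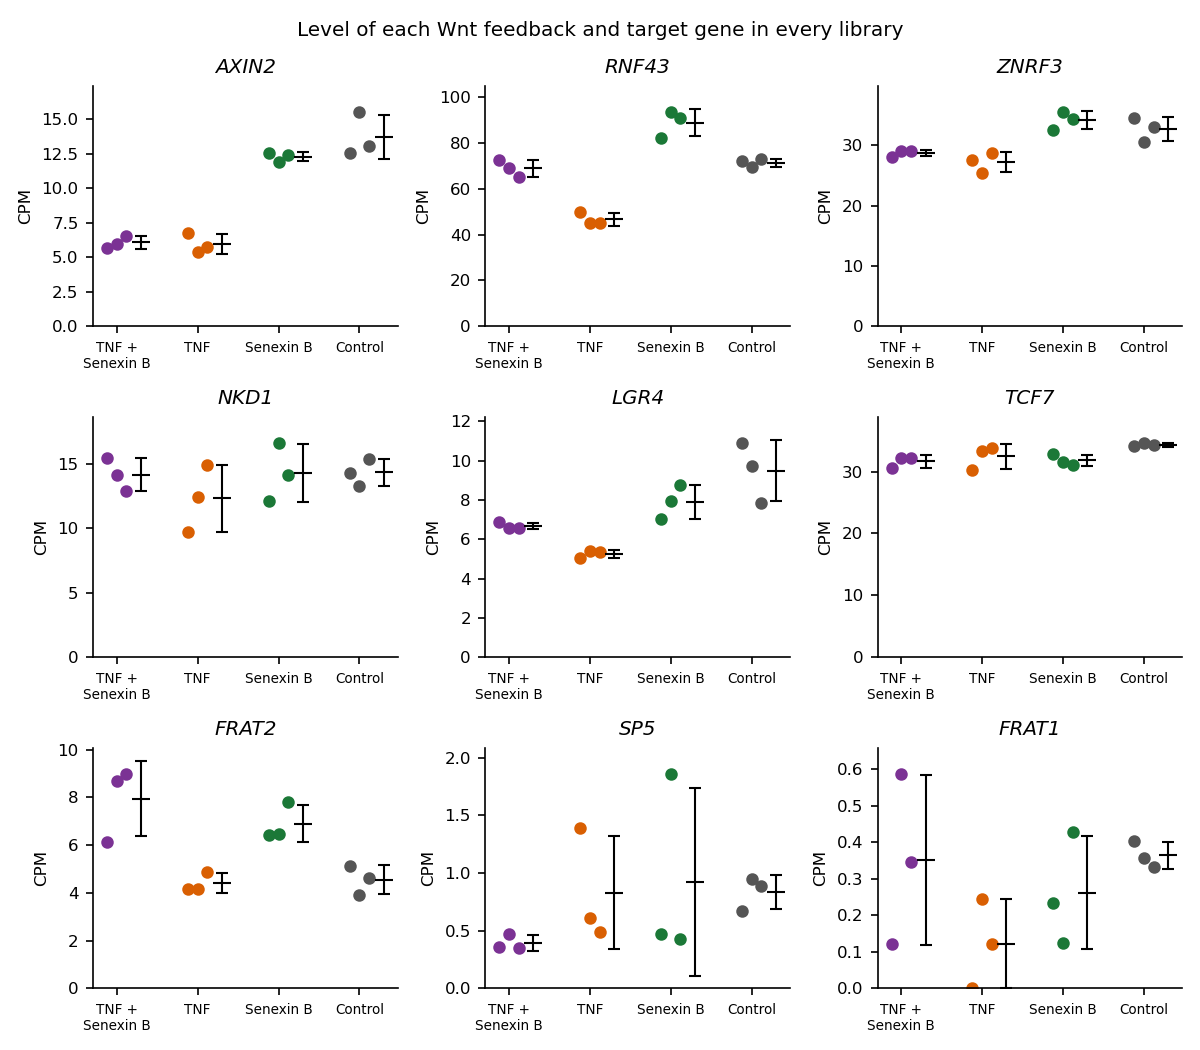
CPM in each library (points) with the mean and SD of 3 libraries (black) for 9 members; each panel has its own axis from 0. AXIN2 separates by TNF alone, RNF43 by TNF and by Senexin B, and FRAT2 by Senexin B.

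LGR4 encodes a receptor for R-spondins, ligands that hold RNF43 and ZNRF3 back from Frizzled. LGR4 (chr11:27365961-27472775, minus strand) had 6.87, 6.58 and 6.57 CPM in TNF plus Senexin B cells, 5.03, 5.40 and 5.37 CPM in TNF cells, 7.03, 7.94 and 8.78 CPM in Senexin B cells, and 10.9, 9.73 and 7.85 CPM in control cells. TNF libraries were the lowest of the 4 groups and overlapped with none, whereas Senexin B and control libraries overlapped. TNF lowered LGR4 by -0.83 ± 0.17 (log2, SE) against control, with an adjusted p of 0.000212. With the inhibitor present the groups did not overlap, but the difference was not called (-0.25 ± 0.16, 95% interval -0.56 to 0.06, adjusted p 0.508). TNF plus Senexin B against TNF likewise showed no overlap and no call (0.33 ± 0.18, 95% interval -0.02 to 0.69, adjusted p 0.305). Senexin B gave -0.25 ± 0.15 against control (95% interval -0.54 to 0.05, adjusted p 0.457). The 3 control libraries spanned 7.85 to 10.9 CPM, the widest range of the 4 groups.

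Since GC content moved with TNF replicate 1, the fits were repeated with GC-corrected offsets. Across genes, the log2 fold change of TNF against control followed GC content with a Spearman's rho of -0.41, and that of TNF plus Senexin B against TNF with 0.37. Annotated transcripts of LGR4 had 42.1% GC, RNF43 50.7%, NKD1 51.6%, AXIN2 53.1%, ZNRF3 53.5%, TCF7 54.9% and FRAT2 60.2%, beside a median of 48.4% over tested genes. After correction, TNF against control gave -1.20 for AXIN2, -0.62 for RNF43 and -0.88 for LGR4 (log2), all still called. ZNRF3 was not called after it (-0.24, adjusted p 0.0630). RNF43 and FRAT2 stayed called in TNF plus Senexin B against TNF, at 0.56 and 0.78. Across all genes, the corrected fit of TNF against control called 1033, of which 809 were among the 1309 of the main fit. For TNF plus Senexin B against TNF it called 605, of which 466 were among the 713 of the main fit. Values of genes other than the members are given without this correction.

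TCF7 encodes TCF-1, a TCF/LEF factor that is itself a Wnt target. TCF7 (chr5:134114711-134151865, plus strand) had 30.5, 32.2 and 32.2 CPM in TNF plus Senexin B cells, 30.2, 33.4 and 33.8 CPM in TNF cells, 32.8, 31.6 and 31.0 CPM in Senexin B cells, and 34.1, 34.7 and 34.3 CPM in control cells. Control libraries were the highest and overlapped with no other group, while the 3 treated groups overlapped with each other. No comparison passed the test. TNF gave -0.07 ± 0.08 (log2, SE, 95% interval -0.23 to 0.09) and Senexin B -0.11 ± 0.08 (95% interval -0.27 to 0.05) against control, with adjusted p of 0.647 and 0.560. Cells with both agents gave -0.05 ± 0.08 against TNF and -0.01 ± 0.08 against Senexin B. SKP1, expressed at 1223 to 1789 counts, shares 2.09% of the TCF7 exon length on the opposite strand, and the library kit does not mark the strand.

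SP5 encodes a zinc-finger factor known as a direct target and repressor in the Wnt pathway, and it was near the detection limit here. It had 3, 4 and 3 counts in TNF plus Senexin B libraries, 8, 5 and 4 in TNF, 4, 15 and 4 in Senexin B, and 5, 8 and 8 in control libraries. Senexin B replicate 2 held 15 of the 23 counts of its group. The ratio of summed counts, scaled by library size, was 0.443 for TNF plus Senexin B over Senexin B (exact 95% interval 0.188 to 0.967, counting error only), and that interval does not cover the spread between the 3 Senexin B libraries. It was 0.510 against TNF (0.209 to 1.18) and 0.465 against control (0.196 to 1.03). TNF against control gave 0.912 (0.452 to 1.81), and Senexin B against control 1.05 (0.556 to 2.00).

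The SP5 promoter is printed since it was the member window with TCF/LEF core motifs. RefSeq windows were matched for 6 of the 10 members (RNF43, SP5, TCF7, LGR4, FRAT1 and FRAT2), with 8 windows in all. CTTTGA, read on both strands (TCAAAG on the other), occurred 3 times in the SP5 window and in none of the other 7. Of 35116 RefSeq windows of 300 bases, 12.9% held it at least once and 0.0997% at least 3 times. The motifs, in capitals, begin at positions -147, -109 and -83 from the start. No member window matched the NF-kB consensus, which 5.91% of all windows held. A match describes letters only. The window is chr2:170715087-170715386 on the plus strand (GRCh38.p14).
SP5: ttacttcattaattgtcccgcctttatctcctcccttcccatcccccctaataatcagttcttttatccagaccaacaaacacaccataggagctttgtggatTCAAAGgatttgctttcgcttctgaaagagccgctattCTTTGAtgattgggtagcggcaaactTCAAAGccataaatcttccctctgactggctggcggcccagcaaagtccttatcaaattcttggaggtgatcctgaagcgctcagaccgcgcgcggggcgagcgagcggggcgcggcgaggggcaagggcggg

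ASCL2, a factor of intestinal stem cells, was listed at 1, 0 and 0 counts in TNF plus Senexin B libraries and at 0 in all TNF, Senexin B and control libraries. A count of 0 over the 3 libraries of a group allows up to 3 counts, or 0.136 CPM in TNF, 0.116 CPM in Senexin B and 0.121 CPM in control cells. LGR5, another intestinal stem cell gene, summed to 1 count in TNF plus Senexin B and 1 in TNF libraries. LEF1, a TCF/LEF factor, summed to 2 counts in TNF plus Senexin B libraries. Each was at 0 in the remaining groups, and no comparison was made for them.

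FRAT1 and FRAT2 encode proteins that bind GSK3 and keep it from beta-catenin. FRAT2 (chr10:97332497-97334709, minus strand) had 6.15, 8.70 and 8.99 CPM in TNF plus Senexin B cells, 4.16, 4.17 and 4.89 CPM in TNF cells, 6.44, 6.45 and 7.81 CPM in Senexin B cells, and 5.12, 3.92 and 4.64 CPM in control cells. Every library with the inhibitor lay above every library without it. Senexin B raised FRAT2 by 0.84 ± 0.19 (log2, SE) in TNF-treated cells, TNF plus Senexin B against TNF, with an adjusted p of 0.00164. Without TNF, Senexin B against control gave 0.61 ± 0.18 with an adjusted p of 0.0470. The second call was lost in 9 of 21 alternative fits, including those without any 1 of the 6 compared libraries, with an adjusted p of up to 0.257 without Senexin B replicate 3. TNF gave -0.03 ± 0.21 against control (95% interval -0.45 to 0.38), and TNF plus Senexin B gave 0.20 ± 0.16 against Senexin B (95% interval -0.12 to 0.52).

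FRAT1 (chr10:97319267-97321915, plus strand) had 1, 5 and 3 counts in TNF plus Senexin B, 0, 2 and 1 in TNF, 2, 1 and 4 in Senexin B, and 3, 3 and 3 in control libraries. With 3 counts over the TNF libraries, the ratio of TNF plus Senexin B to TNF was 2.60 with an exact 95% interval of 0.650 to 15.0, which includes no change. TNF against control gave 0.375 (0.0654 to 1.504), and Senexin B against control 0.746 (0.236 to 2.25). The ratio for cells with both agents was 1.31 against Senexin B (0.434 to 4.14) and 0.977 against control (0.344 to 2.78), so every one of these intervals includes no change. The genes are close paralogs that lie 10581 bases apart, and 51 stretches of 50 bases, 1.93% of those in FRAT1 and 2.36% of those in FRAT2, occur in both, so reads there could be split or dropped. Their RefSeq windows (GRCh38.p14, chr10:97319021-97319320 on the plus strand and chr10:97334680-97334979 on the minus strand) are shown because the genes differ in level while a run of 51 bases, in capitals, is identical around the start. It ends 7 bases past the start in FRAT1 and 11 bases past it in FRAT2.
FRAT1: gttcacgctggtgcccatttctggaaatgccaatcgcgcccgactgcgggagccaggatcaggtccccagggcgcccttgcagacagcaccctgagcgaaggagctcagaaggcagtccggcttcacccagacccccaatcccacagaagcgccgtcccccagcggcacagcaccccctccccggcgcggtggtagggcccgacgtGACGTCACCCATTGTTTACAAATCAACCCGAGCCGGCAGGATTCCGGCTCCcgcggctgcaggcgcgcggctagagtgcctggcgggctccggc
FRAT2: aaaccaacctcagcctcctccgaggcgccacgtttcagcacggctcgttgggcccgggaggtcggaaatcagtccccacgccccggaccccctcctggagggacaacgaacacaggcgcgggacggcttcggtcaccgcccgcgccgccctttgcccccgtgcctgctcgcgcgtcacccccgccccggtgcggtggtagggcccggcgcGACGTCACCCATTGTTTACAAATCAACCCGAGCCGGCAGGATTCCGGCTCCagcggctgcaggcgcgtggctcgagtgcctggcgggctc

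Cells given both agents were also set against control, a comparison in which 11.2% of all tested genes were called, 6.09% higher and 5.08% lower. AXIN2 at -1.17 ± 0.14 (log2, SE, adjusted p 1.43e-09) and LGR4 at -0.50 ± 0.15 (adjusted p 0.0215) were lower, and FRAT2 at 0.81 ± 0.18 (adjusted p 0.000591) was higher. LGR4 lost its call when control replicate 1 was left out (-0.39, adjusted p 0.150), without control replicate 2, and without TNF plus Senexin B replicate 2 or 3. It also lost it without replicates 1 of control and TNF together (adjusted p 0.126) and in DESeq2's Wald test (adjusted p 0.105). ZNRF3 at -0.19 ± 0.08 was not called (95% interval -0.35 to -0.02, adjusted p 0.153), nor were TCF7 at -0.12 ± 0.08 and NKD1 at -0.02 ± 0.12.

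The separate effects were added on the log2 scale and compared with the effect of both agents, which is the interaction of the design. For RNF43 the separate effects summed to -0.31, against -0.05 for both agents together, and for LGR4 to -1.07 against -0.50. AXIN2 had a sum of -1.38 against -1.17, and FRAT2 of 0.57 against 0.81. No member passed the test of this interaction, in which 0.0459% of all genes were called. RNF43 gave 0.26 ± 0.09 (95% interval 0.08 to 0.43, adjusted p 0.741) and LGR4 0.58 ± 0.23 (95% interval 0.12 to 1.04, adjusted p 0.754). AXIN2 gave 0.21 ± 0.21, FRAT2 0.23 ± 0.26, NKD1 0.18 ± 0.18, TCF7 0.07 ± 0.11 and ZNRF3 0.01 ± 0.12 (adjusted p 0.900, 0.912, 0.900, 0.940 and 0.992). At an unadjusted p under 0.05, 2 of the 7 members would have been counted, and DESeq2's Wald test called none after adjustment. A dependence of the TNF effect on the inhibitor was therefore not shown for any member.

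**Figure D4:**
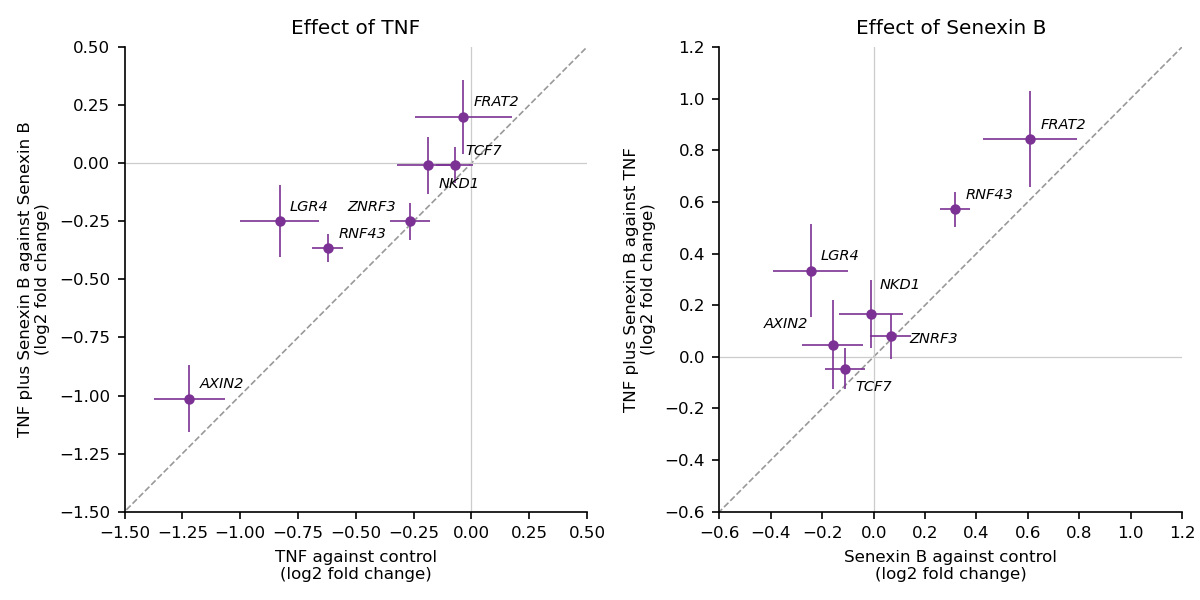
Left: log2 fold change of TNF plus Senexin B against Senexin B (y) and of TNF against control (x) for the 7 tested members; right: TNF plus Senexin B against TNF (y) and Senexin B against control (x). Bars are SE and the dashed line marks equal effects; within a panel the axes share no library, and the height over the line is the interaction in both panels, which was called for no member.

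By rule, the genes whose log2(CPM + 1) followed AXIN2 and RNF43 most closely over the 12 libraries were named among 10383 genes averaging at least 5 CPM. For AXIN2 they included ZNF488, ID2, FAM217B and DOLPP1, with Pearson's r of 0.967, 0.966, 0.959 and 0.954. Means of ZNF488 were 3.72 CPM in TNF plus Senexin B, 3.64 in TNF, 8.85 in Senexin B and 8.31 in control cells, a fall with TNF in both pairs as for AXIN2. For RNF43 they included ID1, TCF7L2, ETV5 and WNT16, with r of 0.965, 0.959, 0.957 and 0.957. Among these, TCF7L2 and WNT16 belong to the Wnt pathway. For the sparse SP5 they were ARHGAP33, LCORL, PRMT6, UBE2R2 and GNB1L, with r of 0.853 down to 0.800. Over the 21 pairs of tested members, r ran from -0.40 for TCF7 and FRAT2 to 0.83. It was 0.83 for AXIN2 and ZNRF3, 0.81 for AXIN2 and LGR4, 0.83 for RNF43 and ZNRF3, and 0.68 for AXIN2 and RNF43, but 0.19 for AXIN2 and NKD1, -0.14 for AXIN2 and FRAT2, and -0.16 for RNF43 and TCF7. These describe 12 libraries that share 4 treatments and their depths.

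The other Wnt genes were read by role, from the main fit without GC correction. Their lists, too, were chosen with earlier results of these data known. Of 10 tested ligand and secretion genes, WNT16 alone was called in any comparison. The shares of all tested genes to set beside the list counts are the 10.0% of TNF against control, 3.04% of Senexin B against control, 5.45% of TNF plus Senexin B against TNF, 5.95% of the same cells against Senexin B and 11.2% of these against control. WNT16, a Wnt ligand, averaged 86.7 ± 2.58 CPM in TNF plus Senexin B, 66.5 ± 3.36 in TNF, 112 ± 3.70 in Senexin B and 87.2 ± 3.89 in control cells (SD, n = 3 each). TNF lowered it by -0.40 ± 0.06 against control and Senexin B raised it by 0.36 ± 0.05 (adjusted p 5.87e-07 and 2.67e-06). WNT16 in cells with both agents gave 0.39 ± 0.06 against TNF and -0.37 ± 0.05 against Senexin B (adjusted p 2.69e-06 and 3.26e-07). Of 9 tested receptor and R-spondin axis genes, TNF against control had 3 lower and 1 higher, beside 10.0% of all genes called. Among them the Frizzled receptors FZD7 at -0.65 ± 0.15 and FZD4 at -0.52 ± 0.15 fell, and FZD6 at 0.21 ± 0.06 rose (adjusted p 0.00118, 0.0105 and 0.00715). With the inhibitor present TNF lowered 1 of the 9 past the threshold, FZD2, by -0.76 ± 0.16 (adjusted p 0.000624). Senexin B changed none of the 9 past the threshold in either pair. In cells with both agents against control 3 were lower and none higher: FZD4 at -0.60 ± 0.14, FZD7 at -0.57 ± 0.14 and FZD1, another Frizzled, at -0.32 ± 0.10 (adjusted p 0.00144, 0.00245 and 0.0223). FZD1 lost its call without control replicate 3 (adjusted p 0.127) and without TNF plus Senexin B replicate 1 or 3 (0.0711 and 0.155), and FZD6 lost that with TNF without control replicate 3 (0.0620).

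Of 16 tested genes for Dishevelled proteins and the destruction complex, TNF lowered 1, DVL1, by -0.21 ± 0.05 (adjusted p 0.00297), beside 4.2% of all genes called lower. Senexin B against control changed none past the threshold, beside 3.04% of all genes. APC, AXIN1 and GSK3B were not called in either, with log2 fold changes for TNF of -0.09 ± 0.07, -0.21 ± 0.09 and 0.13 ± 0.05. When TNF was added to inhibited cells, GSK3B at 0.19 ± 0.05 and FBXW11, a beta-catenin ubiquitin ligase subunit, at 0.18 ± 0.06 rose (adjusted p 0.0158 and 0.0470), 2 of 16 beside 5.95% of all genes. Of 12 fits that each left out 1 library, 4 lost the GSK3B call and 6 the FBXW11 call, with adjusted p of up to 0.168 and 0.422 (without Senexin B replicate 2 for GSK3B and replicate 1 for FBXW11). DVL2 at 0.26 ± 0.07 (adjusted p 0.00945) was higher in TNF plus Senexin B than in TNF cells, a call lost without TNF replicate 1 (adjusted p 0.0734).

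CTNNB1, which encodes beta-catenin, averaged 518 ± 12.6 CPM in TNF plus Senexin B, 546 ± 6.22 in TNF, 514 ± 11.2 in Senexin B and 529 ± 15.4 in control cells, and was not called in any comparison. Its largest fitted change was -0.08 ± 0.04 (adjusted p 0.222, TNF plus Senexin B against TNF). The list of 12 tested genes for beta-catenin, TCF/LEF factors and co-factors had 1 higher and 1 lower with TNF, and 2 higher and 2 lower with Senexin B, each against control. TNF plus Senexin B had 2 higher and none lower against TNF, 2 higher and 3 lower against Senexin B, and 2 higher and 1 lower against control. With 12 genes, 1 call alone is already a share near or above those of all genes, and every comparison here had more. Among the 12, TCF7L2, which encodes a TCF factor, changed in the same directions as RNF43. It gave -0.22 ± 0.05 for TNF and 0.26 ± 0.05 for Senexin B, each against control (adjusted p 0.00194 and 0.000245), and 0.03 ± 0.05 for both agents against control (adjusted p 0.812). With both agents, TCF7L2 gave 0.24 ± 0.05 against TNF and -0.23 ± 0.05 against Senexin B (adjusted p 0.000863 and 0.000437). TLE3, a co-repressor, rose by 0.38 ± 0.06 with Senexin B, and CREBBP, a co-activator, fell by 0.35 ± 0.06 (adjusted p 3.34e-05 and 0.000349). TLE3 was also higher in TNF plus Senexin B than in TNF cells (0.39 ± 0.07, adjusted p 3.18e-05) and than in control cells (0.31 ± 0.06, adjusted p 0.000290). BCL9 and BCL9L encode related beta-catenin co-activators. In TNF plus Senexin B cells they differed in opposite directions from Senexin B and from control cells. With Senexin B alone they did not part in this way. BCL9L averaged 140 ± 4.73 CPM in Senexin B and 164 ± 4.41 in control cells, and BCL9 50.1 ± 1.75 and 51.2 ± 3.51 (SD, n = 3 each). BCL9L was higher with TNF against control by 0.19 ± 0.06 (adjusted p 0.0459), and in TNF plus Senexin B by 0.48 ± 0.06 against Senexin B and 0.25 ± 0.06 against control (adjusted p 6.35e-07 and 0.00410). BCL9 was lower in TNF plus Senexin B by -0.25 ± 0.07 against Senexin B and -0.29 ± 0.07 against control (adjusted p 0.0181 and 0.00312). Of 12 fits that left out 1 library, the TNF call of BCL9L was lost in 10 (adjusted p up to 0.238, without TNF replicate 2). The BCL9 call against Senexin B was lost in 4 (up to 0.0981, without Senexin B replicate 2), and that against control in 1 (0.0611, without control replicate 3).

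Of 8 tested inhibitors of the pathway, TNF raised 1, DKK1, a secreted LRP antagonist, by 0.22 ± 0.04 (adjusted p 7.70e-06), 1 of 8 beside 10.0% of all genes. With both agents DKK1 stood 0.12 ± 0.04 above control (adjusted p 0.0237), a call lost in 5 of 12 fits that left out 1 library (adjusted p up to 0.0810, without control replicate 3). DACT1 was lower in TNF plus Senexin B than in Senexin B cells by -0.89 ± 0.22 (adjusted p 0.00324), and not so without Senexin B replicate 3 (adjusted p 0.0917).

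Among 21 other tested target genes, TNF against control had 4 higher and 5 lower, beside 10.0% of all genes called. Senexin B against control had 6 higher and none lower, beside 3.04%. TNF plus Senexin B against TNF had 8 higher and none lower, among them SOX4 at 0.54 ± 0.05 (adjusted p 3.39e-11), beside 5.45% of all genes. The same cells against Senexin B had 4 higher and 6 lower, beside 5.95%. Against control they had 7 higher and 5 lower, where 11.2% of all genes were called. Median log2 fold changes of the 21 in the first 4 of these comparisons were -0.13, 0.09, 0.16 and -0.01. Targets therefore did not share a direction with TNF: MYC rose by 0.43 ± 0.04 while ID2 fell by 1.13 ± 0.08 (adjusted p 4.74e-14 and 1.75e-18). Senexin B raised MYC by 0.45 ± 0.04 against control, and with both agents MYC stood 0.78 ± 0.04 above control (adjusted p 8.94e-14 and 4.33e-25). ID2 was lower in TNF plus Senexin B by -1.14 ± 0.08 against Senexin B and by -1.21 ± 0.08 against control (adjusted p 5.98e-19 and 2.55e-20). JAG1, which encodes a Notch ligand, was higher with Senexin B against control by 0.38 ± 0.06 (adjusted p 3.13e-06). Its mean was 150 ± 6.87 CPM in TNF plus Senexin B, 97.5 ± 0.477 in TNF, 91.8 ± 5.14 in Senexin B and 70.7 ± 2.44 in control cells (SD, n = 3 each), so it was above control with TNF alone too. In TNF plus Senexin B cells JAG1 was higher by 0.62 ± 0.05 against TNF, 0.71 ± 0.05 against Senexin B and 1.09 ± 0.05 against control (adjusted p 1.35e-13, 3.65e-17 and 1.33e-24). CCND1, the cyclin D1 gene, was not called in any comparison, with 0.09 ± 0.03 for TNF against control (adjusted p 0.0599).

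BMP4, which encodes a secreted ligand of the TGF-beta family, changed in the same directions as RNF43 in the 4 comparisons of 1 added agent. It averaged 132 ± 3.87 CPM in TNF plus Senexin B, 88.2 ± 3.25 in TNF, 211 ± 3.99 in Senexin B and 176 ± 3.05 in control cells (SD, n = 3 each). TNF lowered BMP4 by -0.99 ± 0.05 and Senexin B raised it by 0.27 ± 0.04, each against control (adjusted p 2.65e-24 and 4.06e-05). With both agents, BMP4 gave 0.58 ± 0.05 against TNF and -0.68 ± 0.05 against Senexin B (adjusted p 4.83e-13 and 1.47e-18). BMP4 was the 1 gene of the Wnt lists whose interaction passed the test, at 0.32 ± 0.07 (adjusted p 0.0446). Of 12 fits that left out 1 library, 11 lost this call, with adjusted p of up to 0.334 without TNF plus Senexin B replicate 1, and it held without TNF replicate 1 (0.0103).

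**Figure D5:**
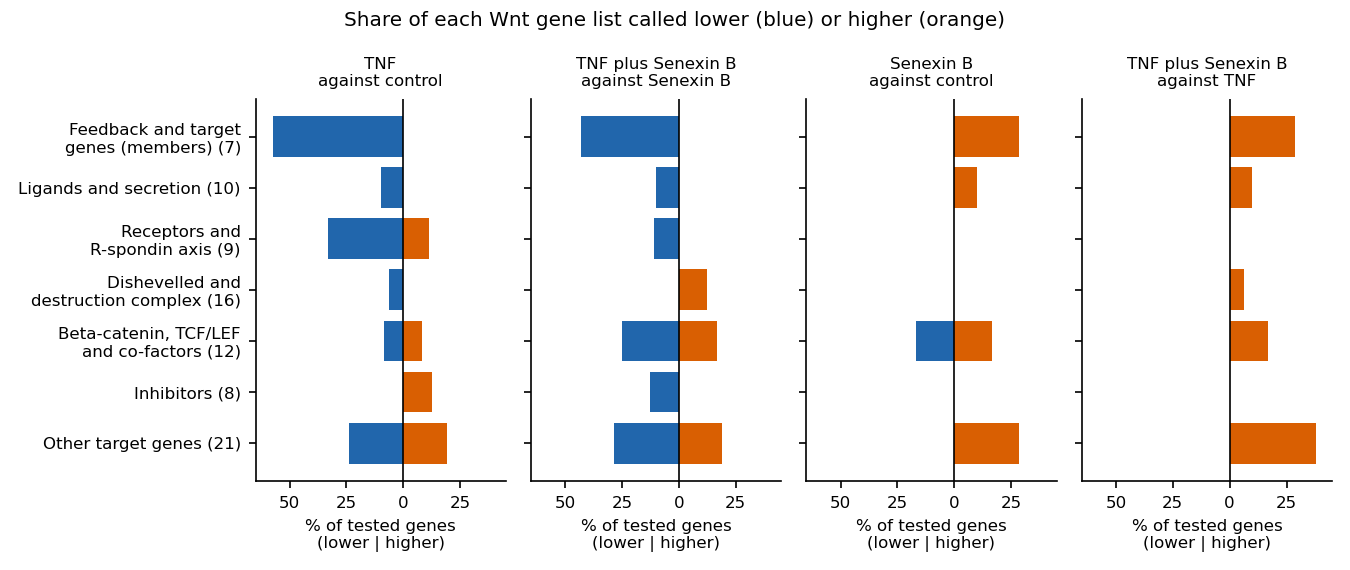
Percent of the tested genes of each Wnt list (number tested in brackets) called lower (blue, left of 0) or higher (orange, right of 0) in 4 comparisons. Members, ligand and secretion genes and other target genes have only higher calls in both Senexin B comparisons. Other target genes and the beta-catenin list have calls on both sides in both TNF comparisons.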

How the data were processed

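The 12 HCT116 libraries were made with a TruSeq RNA kit, per the labels' protocols, which is a kit without strand marks. The authors deposited unnormalized counts for each symbol. The submitters' processing notes name featureCounts (Subread 1.4.6), STAR 2.4, SAMtools 1.2 and build GRCh38 (hg38). The annotation release, the strand setting and the treatment of multimapping reads are not given in the sources used here, so shared or overlapping exons may be counted either way. Positions came from GENCODE 29.

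The counts went into R 4.3.3 and edgeR 4.0.16 (filterByExpr, TMM, robust quasi-likelihood F-tests), with 1 coefficient per group over all 12 libraries, which leaves groups sharing 1 estimate of the spread (biological coefficient of variation 3.62%). P-values were adjusted by Benjamini-Hochberg over 13084 genes and called under 0.05. Standard errors are Wald errors. Intervals and floors of counts (3 counts at 0) cover counting error only. Comparisons that share a group share its libraries. The pipeline was tested on simulated counts. Alternatives were DESeq2 1.42.0, other scalings and filters, a replicate block, GC-corrected offsets and each library left out. The 7 tested members were named in each comparison and the other 3 given as counts. Of other Wnt lists up to 3 called genes with the smallest adjusted p were, along with CTNNB1, TCF7L2, LEF1, LGR5, APC, AXIN1, GSK3B, MYC, CCND1, NFKBIA, TNFAIP3 and the 5 genes most correlated with each of AXIN2, RNF43 and SP5. SOX4, ID2 and DACT1 follow that rule. Some of these most correlated genes are not reported here. Members and lists were chosen with earlier results of these data known.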

Additional observations from a re-analysis of the deposited data

How the results depend on the processing

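Of 42 member results, 14 were called, and 10 of these kept their call in each of up to 22 alternatives that gave a value. The other 4 were ZNRF3 in TNF against control (adjusted p 0.0186 to 0.160) and in TNF plus Senexin B set against Senexin B (0.0264 to 0.208), FRAT2 in Senexin B against control (0.0201 to 0.257) and LGR4 in TNF plus Senexin B against control (0.00678 to 0.150). No called result turned direction, and none of the 28 others was called in any alternative. DESeq2 gave no adjusted p for 6 member results. No alternative moved the median log2 fold change of all genes past 0.03. Low counts limit SP5, FRAT1 and ASCL2.

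The replicate block gave 1470 genes called in TNF against control, beside 1309, and 479 in Senexin B against control, beside 398. Same-numbered libraries deviated together with r of -0.012 to 0.103 over 18 pairs, of which 1 was over 0.1. These correlations were weak, but 28 of 36 correlated best with their own number. Whether the numbers pair the samples is therefore not settled, and the main fit has no replicate block. DESeq2's Wald test called 850 genes in TNF against control and 475 in TNF plus Senexin B against TNF (713 with edgeR), and 1 member in each of Senexin B against control and TNF plus Senexin B against TNF. In both of these comparisons DESeq2 gave no adjusted p for FRAT2, so its edgeR calls could not be set against that test. GC-corrected offsets gave 1033 genes in TNF against control and 605 in TNF plus Senexin B against TNF. In Senexin B against control they gave 599 genes, and 740 with the replicate block. Without the low-count filter, 1 member was called in Senexin B against control and 10 genes in the interaction (6 with it).

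Leaving out 1 library gave 238 to 597 genes in Senexin B against control, with 250 without Senexin B replicate 2 and 238 without its replicate 3, and 1 to 2 members there. It gave 447 to 817 genes in TNF plus Senexin B against TNF, and 2 to 9 in the interaction. Directions turned for 7 results that were not called. FRAT2 in TNF against control was 0.0571 with GC-corrected offsets, 0.0513 with the replicate block and GC correction, 0.0779 without control and TNF replicates 1 together, and -0.133 to 0.0456 over the fits that left out 1 library. NKD1 in Senexin B against control was 0.0017 without the filter and -0.126 to 0.0938 over those fits. Over those fits AXIN2 in TNF plus Senexin B against TNF ran from -0.0193 to 0.128, NKD1 in cells with both agents from -0.114 to 0.106 against Senexin B and from -0.0856 to 0.0424 against control, and TCF7 from -0.0265 to 0.0175 against Senexin B. ZNRF3 in the interaction was -0.0139 with GC-corrected offsets, -0.0142 with these and the replicate block, -0.0113 without control and TNF replicates 1 together, and -0.0377 to 0.0605 over the fits that left out 1 library. The cause was not tested.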
